A study of Mus musculus with 24 samples.

Results

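The genes described here are 10 genes of sodium reabsorption in the loop of Henle, the distal tubule and the collecting duct: the 3 subunits of the epithelial sodium channel ENaC (Scnn1a, Scnn1b and Scnn1g), the cotransporters Slc12a1 and Slc12a3, the kinases Wnk1, Wnk4, Stk39 and Sgk1, and the mineralocorticoid receptor Nr3c2. They were chosen by name, as members of this pathway, from 22911 genes named on the array, of which 17736 were tested. All 10 were measured, by 16 probes, and each of these probes was well above background on all 24 arrays. Whole-kidney RNA of male Crl:CD1(ICR) mice was hybridised to 1-colour Agilent arrays, 1 per mouse. Sham mice (n = 6) received vehicle intravenously and normal feed. Mice of the DKD group (n = 9, for diabetic kidney disease) received 90 mg/kg of alloxan intravenously, a toxin of the insulin-producing cells, 3 days before grouping, and normal feed. Mice of the enarodustat group (n = 9) received the same alloxan dose and feed with 0.01% (w/w) enarodustat, which stabilises hypoxia-inducible factor (HIF) by blocking the enzymes that hydroxylate it. Kidneys were taken 16 days after grouping, and both diabetic groups had been picked to match in blood glucose and weight. The design is therefore an early toxin-induced diabetes in 1 outbred stock and 1 sex, with no sham mice on the drug.

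Sodium that leaves the proximal tubule is taken up in turn by the sodium-potassium-chloride cotransporter NKCC2 (Slc12a1) of the thick ascending limb, the thiazide-sensitive sodium-chloride cotransporter NCC (Slc12a3) of the distal convoluted tubule, and ENaC of the late distal tubule and the principal cells of the collecting duct. WNK kinases activate the kinase SPAK (Stk39), which phosphorylates both cotransporters, while aldosterone acts through the mineralocorticoid receptor to induce the kinase Sgk1, which keeps ENaC at the cell surface. Much of this control acts on proteins, by phosphorylation, cleavage and ubiquitination, which an RNA array does not read.

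A level is the log2 signal of a probe minus log2 of that array's 75th percentile, so that 0 is the signal of that percentile. A difference is given as a log2 value ± SE from 1 limma fit over 24 arrays, and "rose" or "fell" is written where its p, adjusted by the Benjamini-Hochberg method over all 17736 genes, was under 0.05. The probe with the brightest mean signal stands for its gene. Arrays of 1 group correlated at 0.964 to 0.991 across genes, 37716 to 44732 spots per array were well above background, and the number of mice limits the precision. Each of 3 slides held 2 sham, 3 DKD and 3 enarodustat arrays. Row 1 of the slides held every sham array and 6 DKD arrays, and row 2 every enarodustat array and 3 DKD arrays. The scanner software gave the array of enarodustat 3 a quality warning, and that array was kept.

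Diabetic kidneys were compared with sham kidneys to see which of the sodium transport genes differ in untreated diabetes. Sgk1 was 2.07-fold higher, Scnn1g 1.46-fold, Wnk4 1.41-fold and Slc12a1 1.33-fold, and these 4 of the 10 genes rose. None of the 10 fell, and the estimates of all 10 were above 0. Their median difference was 0.24, beside −0.01 over all genes tested, of which 11.6% passed, 5.47% upward and 6.13% downward. At an unadjusted p under 0.05, 6 of the 10 genes would be counted, beside 24.8% of all genes. In whole kidney, more cells of a type and more RNA per cell cannot be told apart.

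Sgk1, the steroid-induced kinase that protects ENaC from removal by the ubiquitin ligase Nedd4-2, had the largest difference of the 10. Its level in sham kidneys ran from 2.53 to 3.61 (median 2.98), and in DKD kidneys from 3.15 to 4.93 (median 4.04). Of the 9 DKD arrays, 8 lay above the highest sham array and 1, DKD 8, lay within the sham range. The difference was 1.05 ± 0.20 (adjusted p = 0.00126), with a 95% interval from 0.64 to 1.46. Within the 3 slides it was 1.61, 0.84 and 0.70, on 2 sham and 3 DKD arrays each, so the sign was the same on every slide and the size differed between them. The receptor gene Nr3c2, by contrast, lay between −2.55 and −2.20 in sham kidneys and between −2.53 and −2.09 in DKD kidneys. The Nr3c2 groups overlapped in 6 of 9 DKD arrays, with a difference of 0.10 ± 0.09 (adjusted p = 0.52).

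Of the ENaC subunits, the gamma subunit rose and the alpha and beta subunits did not pass the test. Scnn1g lay between 0.044 and 0.60 in sham kidneys (median 0.39) and between 0.56 and 1.22 in DKD kidneys (median 0.89). Of the 9 DKD arrays only DKD 4 lay inside the sham range. The Scnn1g difference was 0.54 ± 0.12 (adjusted p = 0.00389), and 0.72, 0.39 and 0.52 within the slides. Scnn1a, the subunit that can form a channel pore by itself and a known aldosterone target in the kidney, ranged from 2.49 to 2.80 in sham and from 2.58 to 3.11 in DKD kidneys. Its difference of 0.19 ± 0.09 had an unadjusted p of 0.0338 and an adjusted p of 0.157, with 8 of 9 DKD arrays above the sham mean and 5 within the sham range. Scnn1b was read by a single dim probe, at a median of 2.28 log2 units above the lowest signal called well above background on the same array. Its SD was 0.41 within the sham group and 0.35 within the DKD group, and its difference of 0.17 ± 0.18 (95% interval −0.20 to 0.54, adjusted p = 0.626) leaves wide room in both directions.

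The loop cotransporter Slc12a1, the target of furosemide, rose, while the estimate for the thiazide-sensitive Slc12a3 was smaller and did not pass. Slc12a1 was tight in sham kidneys, from 3.37 to 3.66 (median 3.47), and ran from 3.65 to 4.36 (median 3.87) in DKD kidneys. A single DKD array, DKD 7, lay below the highest sham array. The difference was 0.41 ± 0.09 (adjusted p = 0.00564), and 0.44, 0.40 and 0.39 within the slides. Slc12a3 ranged from 1.53 to 2.18 in sham and from 1.72 to 2.40 in DKD kidneys, with 8 of 9 DKD arrays inside the sham range. The Slc12a3 difference was 0.11 ± 0.11 (adjusted p = 0.583), and −0.16, 0.18 and 0.31 within the slides, so its sign was not shared by the slides.

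Among the kinases upstream of the cotransporters, Wnk4 rose. This kinase, mutated in familial hyperkalaemic hypertension, lay between 1.51 and 1.83 in sham kidneys (median 1.77) and between 1.79 and 2.79 in DKD kidneys (median 2.21). DKD 9 lay within the sham range and DKD 5 stood highest. The Wnk4 difference was 0.50 ± 0.12 (adjusted p = 0.00755), and 0.36, 0.64 and 0.48 within the slides. Stk39, the gene of SPAK, was above the sham mean in 9 of 9 DKD arrays, with 3 of them inside the sham range, and differed by 0.27 ± 0.10 (unadjusted p = 0.0147, adjusted p = 0.0926). Wnk1, the other main WNK kinase of this segment, ran from 2.87 to 4.04 in DKD kidneys against 3.10 to 3.58 in sham kidneys. With 1 DKD array, DKD 7, below every sham array and several above, its difference of 0.22 ± 0.13 did not pass (adjusted p = 0.315). DKD 7 was low by this brightest probe only, and lay above every sham array by the dimmer Wnk1 probes. By its brightest probe no member separated DKD from sham completely, while 3.4% of all genes tested did.

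**Figure D1:**
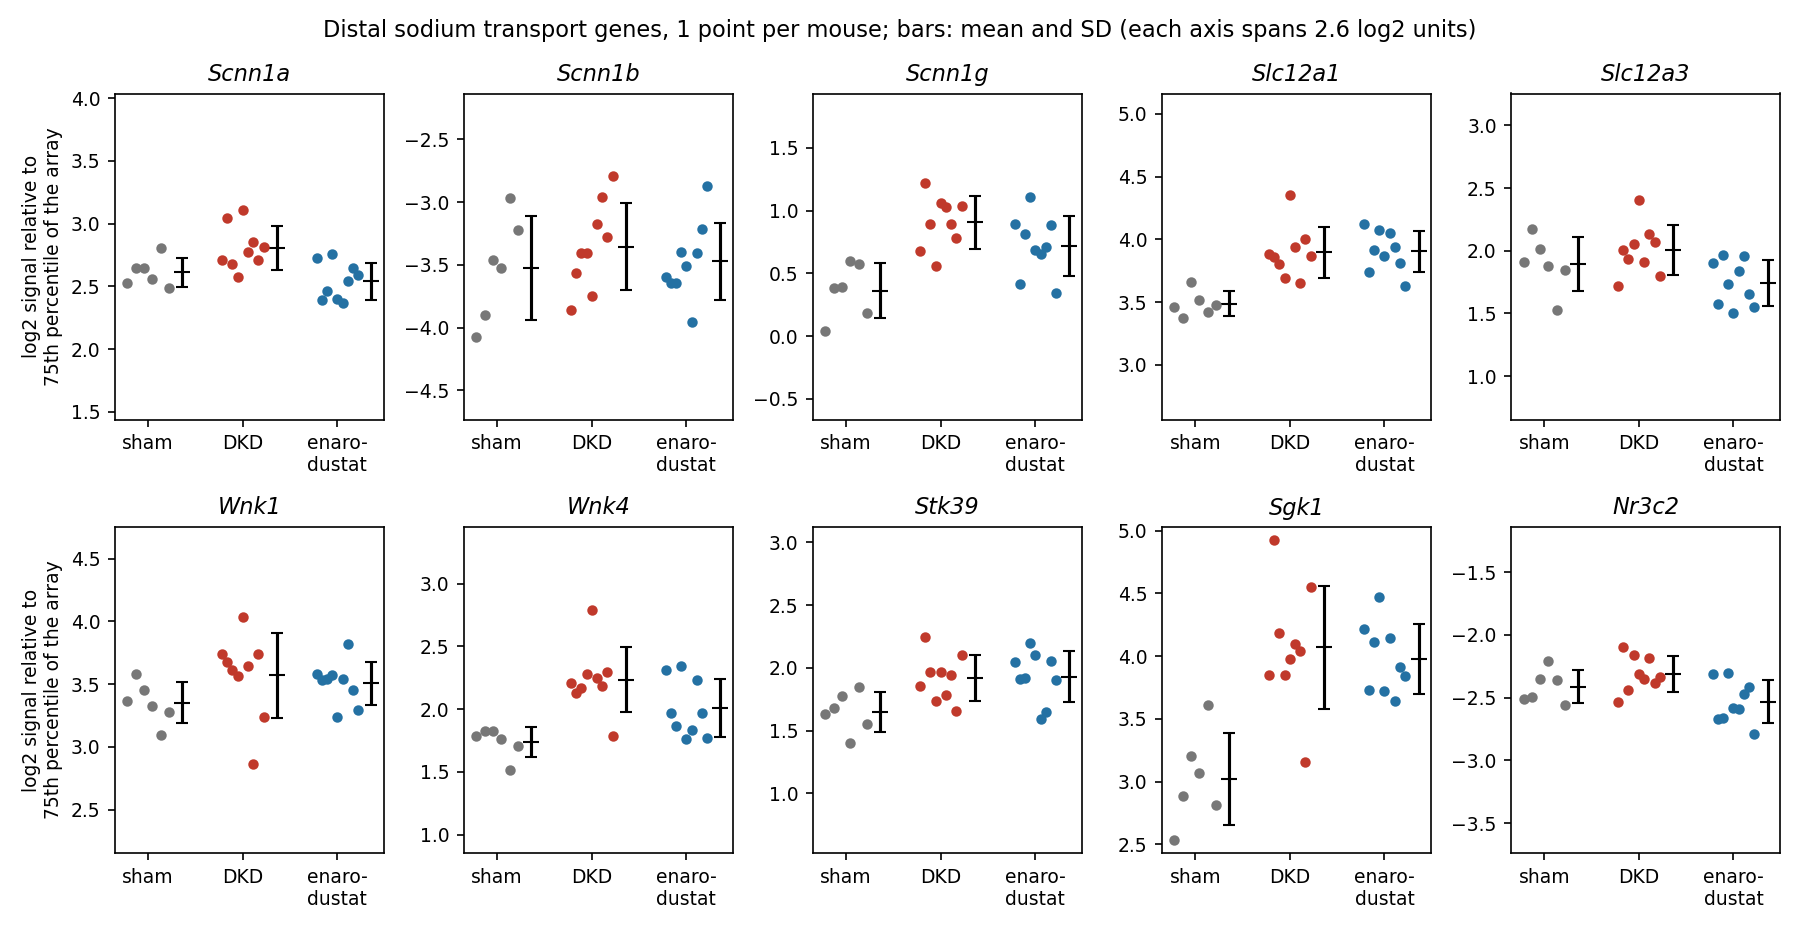
Level of each of the 10 genes (log2 signal of the brightest probe, with the array's 75th percentile set to 0) in every mouse, by group, with the mean and SD; each panel spans the same height but has its own offset. Sgk1 ran from 2.53 to 3.61 in sham and from 3.64 to 4.47 in enarodustat kidneys, and DKD 5 stands highest of its group in Slc12a1 and Wnk4.

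The promoter windows of the 4 genes that rose are shown because aldosterone and glucocorticoid receptors bind AGAACA, any 3 bases, then TGTTCT, and HIF binds the core ACGTG or GCGTG. The windows are the 250 bases before a start site in RefSeq on GRCm38.p6, cut short where another start of the gene lies inside, and both strands were searched. Capitals mark TGTTCT units and HIF cores in either orientation, which overlap at the upstream end of the Sgk1 window, where CACGTG (an E-box) is followed by TTCT.
Sgk1, chr10:21993640-21993889, plus strand: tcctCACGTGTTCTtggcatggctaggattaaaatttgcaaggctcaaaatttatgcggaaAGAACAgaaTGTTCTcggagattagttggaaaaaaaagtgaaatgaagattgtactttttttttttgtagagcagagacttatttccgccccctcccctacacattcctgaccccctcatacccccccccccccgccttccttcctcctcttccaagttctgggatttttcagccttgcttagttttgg
Scnn1g, chr7:121734229-121734419, plus strand: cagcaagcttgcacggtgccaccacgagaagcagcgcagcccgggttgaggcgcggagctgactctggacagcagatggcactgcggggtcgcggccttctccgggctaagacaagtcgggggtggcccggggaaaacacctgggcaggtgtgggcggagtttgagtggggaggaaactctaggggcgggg
Slc12a1, chr2:125152350-125152509, plus strand: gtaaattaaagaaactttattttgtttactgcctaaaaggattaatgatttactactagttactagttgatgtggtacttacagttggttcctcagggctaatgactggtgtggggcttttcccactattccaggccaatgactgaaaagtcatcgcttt
Wnk4, chr11:101260317-101260536, plus strand: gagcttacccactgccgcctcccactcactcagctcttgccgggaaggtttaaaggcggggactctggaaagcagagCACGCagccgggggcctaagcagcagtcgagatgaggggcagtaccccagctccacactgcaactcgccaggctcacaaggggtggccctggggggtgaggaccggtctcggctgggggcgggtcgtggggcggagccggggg
The Sgk1 window belongs to the fifth of 6 listed starts of the gene and holds the complete steroid element from −189; it is shown because of that match. None of the other 5 Sgk1 windows holds the complete element, and those of starts 2 and 3 hold none of the letters searched. That element occurred in 3 of 32851 windows of this length (0.00913%), the others being those of Acnat2 and Gm35041. A TGTTCT unit alone occurred in 16.1% of the windows, a HIF core in 38.6% and CACGTG in 6.02%. The Scnn1g window holds none of these letters, the Wnk4 window has a HIF core at −173, and Slc12a1 has one at −24, in the stretch not shown. Of the 6 genes that did not rise, Wnk1 (at −108), Stk39 (at −230) and Nr3c2 (at −213) have a HIF core, Scnn1b and Slc12a3 have no match, and Scnn1a had no entry. A match is a run of letters and not a measured binding site, and the arrays do not bear on which of the 6 Sgk1 starts was used.

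Enarodustat-fed and untreated diabetic mice were compared to see what the drug changes within diabetes. None of the 10 genes passed the test, beside 0.716% of all genes (0.609% higher and 0.107% lower). At an unadjusted p under 0.05, 4 of the 10 would be counted, beside 10.9% of all genes, with all 4 estimates below 0: Scnn1a, Slc12a3, Nr3c2 and Wnk4. The estimates were negative for 8 of the 10 genes, with a median of −0.15 beside 0.005 over all genes. No member was without overlap between these groups, against 0.147% of all genes.

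The values of these 4 genes follow, none of which passed the adjusted threshold. Scnn1a ran from 2.58 to 3.11 in DKD kidneys (median 2.77) and from 2.37 to 2.76 in enarodustat kidneys (median 2.54). All 9 enarodustat arrays lay below the DKD mean, and 4 were within the DKD range. The Scnn1a difference was −0.26 ± 0.08 (unadjusted p = 0.00223, adjusted p = 0.137), and −0.29, −0.31 and −0.20 within the slides. Slc12a3 had a median of 2.01 in DKD and 1.73 in enarodustat kidneys, with ranges of 1.72 to 2.40 and 1.502 to 1.97. Again all 9 enarodustat arrays lay below the DKD mean, with a difference of −0.26 ± 0.10 (adjusted p = 0.279). The Slc12a3 estimate was −0.07, −0.43 and −0.28 within the slides, so it was small on slide 1. Nr3c2 had medians of −2.33 and −2.58, differed by −0.22 ± 0.08 (adjusted p = 0.249) and stood at −0.19, −0.21 and −0.26 within the slides. Wnk4 had medians of 2.21 and 1.97 and differed by −0.22 ± 0.11 (adjusted p = 0.444). Its estimate was −0.12, −0.46 and −0.10 within the slides, so it was largest on slide 2. The dimmer Wnk4 probe differed by −0.34 ± 0.11 (adjusted p = 0.265 in the limma fit over 40774 probes).

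The genes with the firmest rise in diabetes showed no passing difference with the drug. Their 95% intervals give the range of shifts that the data allow, not the smallest shift the test would have called. For Sgk1 the 95% interval of the drug difference ran from −0.46 to 0.28 around −0.09 (adjusted p = 0.932). Sgk1 levels in all 9 enarodustat kidneys, from 3.64 to 4.47 (median 3.91), lay inside the wider DKD range. For Slc12a1 the interval was narrower, from −0.16 to 0.18 around 0.01 (adjusted p = 0.989), with levels from 3.63 to 4.12 (median 3.91). Scnn1g, at 0.34 to 1.11 (median 0.71), differed by −0.18 ± 0.11 (95% interval −0.40 to 0.035, unadjusted p = 0.0955). Wnk1, Scnn1b and Stk39 differed by −0.06, −0.12 and 0.01, with adjusted p of 0.931, 0.9 and 0.982.

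Enarodustat-fed diabetic mice were also set against sham mice, the same sham arrays as above, so the comparisons are not independent. Sgk1 was 1.94-fold higher, Slc12a1 1.34-fold and Scnn1g 1.28-fold, and these 3 genes rose while none fell. The median difference of the 10 was 0.21, beside −0.02 over all genes, of which 15.5% passed (8.74% upward and 6.75% downward). Sgk1 differed by 0.96 ± 0.20 (adjusted p = 0.0022) and its groups did not overlap, the sham maximum being 3.61 and the enarodustat minimum 3.64; 4.94% of all genes were without overlap. Its values within the slides were 1.31, 0.98 and 0.59. Slc12a1 differed by 0.42 ± 0.09 (adjusted p = 0.00395) with 1 array inside the sham range, and Scnn1g by 0.36 ± 0.12 (adjusted p = 0.0422) with 2 inside. Wnk4 was above the sham mean in 9 of 9 arrays but did not pass (0.27 ± 0.12, adjusted p = 0.126), nor did Stk39 (0.28 ± 0.10, adjusted p = 0.0617), whose call changed with the scaling and the probe. Scnn1a, Slc12a3 and Nr3c2 had estimates below 0, of −0.07, −0.15 and −0.12, with adjusted p of 0.643, 0.373 and 0.38. Row of the slide and group cannot be told apart between sham and enarodustat arrays except through the DKD arrays: with the row as a term, Sgk1 stood at 0.65 (adjusted p = 0.234), Slc12a1 at 0.46 (0.0915) and Scnn1g at 0.23 (0.475), and none of the 10 passed. With the same term the 4 rises of DKD over sham all still passed, at 0.95 for Sgk1, 0.50 for Scnn1g, 0.58 for Wnk4 and 0.42 for Slc12a1.

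The Scnn1g rise in this comparison was the least secure of those named. It lost the call without sham 1, sham 2, sham 3 or sham 6, and without enarodustat 1, 3, 4, 6, 7 or 8, with an adjusted p of at most 0.113. It was also lost with no filter on dim probes (adjusted p = 0.0581) and with only these groups in the fit (adjusted p = 0.054).

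**Figure D2:**
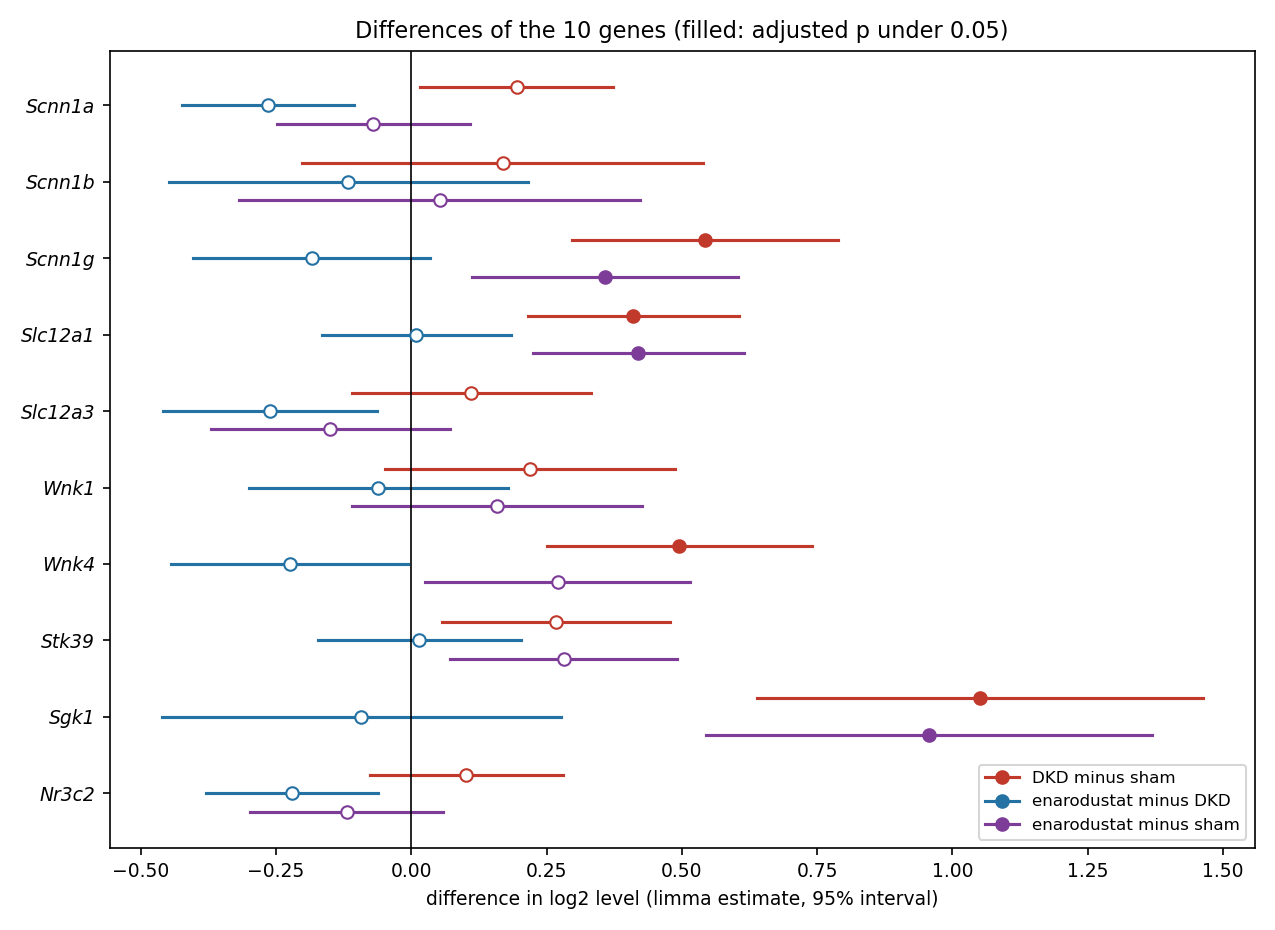
Difference in log2 level of each gene (limma estimate with its 95% interval) in the 3 comparisons, with filled points where the adjusted p was under 0.05. Scnn1g, Slc12a1 and Sgk1 are filled in both comparisons with sham, Wnk4 in DKD over sham alone, and none is filled for enarodustat over DKD.

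Of the 10 genes, 5 were read by more than 1 probe, and each probe was fitted by itself among 40774 probes, of which 7.52% passed for DKD over sham, 0.258% for enarodustat over DKD and 12.8% for enarodustat over sham. Wnk4 was higher in DKD kidneys by both probes, at 0.50 ± 0.12 (adjusted p = 0.0127) and 0.48 ± 0.12 (adjusted p = 0.017). The dimmer probe of Stk39 rose, by 0.43 ± 0.10 in DKD (adjusted p = 0.00627) and by 0.41 ± 0.10 in enarodustat kidneys over sham (adjusted p = 0.00695), where the brighter one had missed the threshold. On the dimmer Stk39 probe neither diabetic group overlapped with sham: sham kidneys reached 0.75, while DKD kidneys began at 0.83 and enarodustat kidneys at 0.76. The share of probes without overlap was not counted. Of all genes, 3.4% were without overlap in DKD over sham and 4.94% in enarodustat over sham. The gene's call in DKD thus changed with the probe, and it also passed with the mean of its probes (0.35, adjusted p = 0.0172), by quantile normalization (0.31, adjusted p = 0.0277), with a percentile over the probes detected on all arrays (0.31, adjusted p = 0.0271) and in the authors' deposited values (0.30, adjusted p = 0.013). For enarodustat over sham it passed in the same 4 settings, with an adjusted p of 0.0151, 0.0196, 0.0182 and 0.0123 in that order, by normexp (0.27, adjusted p = 0.042), and without DKD 2, enarodustat 6 or enarodustat 7; with the slide row as a term it stood at 0.23 (adjusted p = 0.411).

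The probes of Scnn1a opposed each other. By the dimmer one the gene was lower in DKD than in sham kidneys, at −0.29 ± 0.22 (adjusted p = 0.462), where the brighter one gave 0.19. For enarodustat over sham the dimmer probe gave −0.64 ± 0.22 (adjusted p = 0.0561), with medians of 1.51 in sham, 1.13 in DKD and 0.72 in enarodustat kidneys. For enarodustat over DKD both Scnn1a probes were lower, at −0.26 and −0.35. The probes of Wnk1, which the locus transcribes in a long form and in a kidney form without the kinase domain, gave 0.22, 0.15 and 0.10 in DKD over sham, none of them passing, and which form each probe reads was not settled here. The second Nr3c2 probe, at a median of 1.53 log2 units above the lowest called signal, gave 0.34 ± 0.20 (adjusted p = 0.319).

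**Figure D3:**
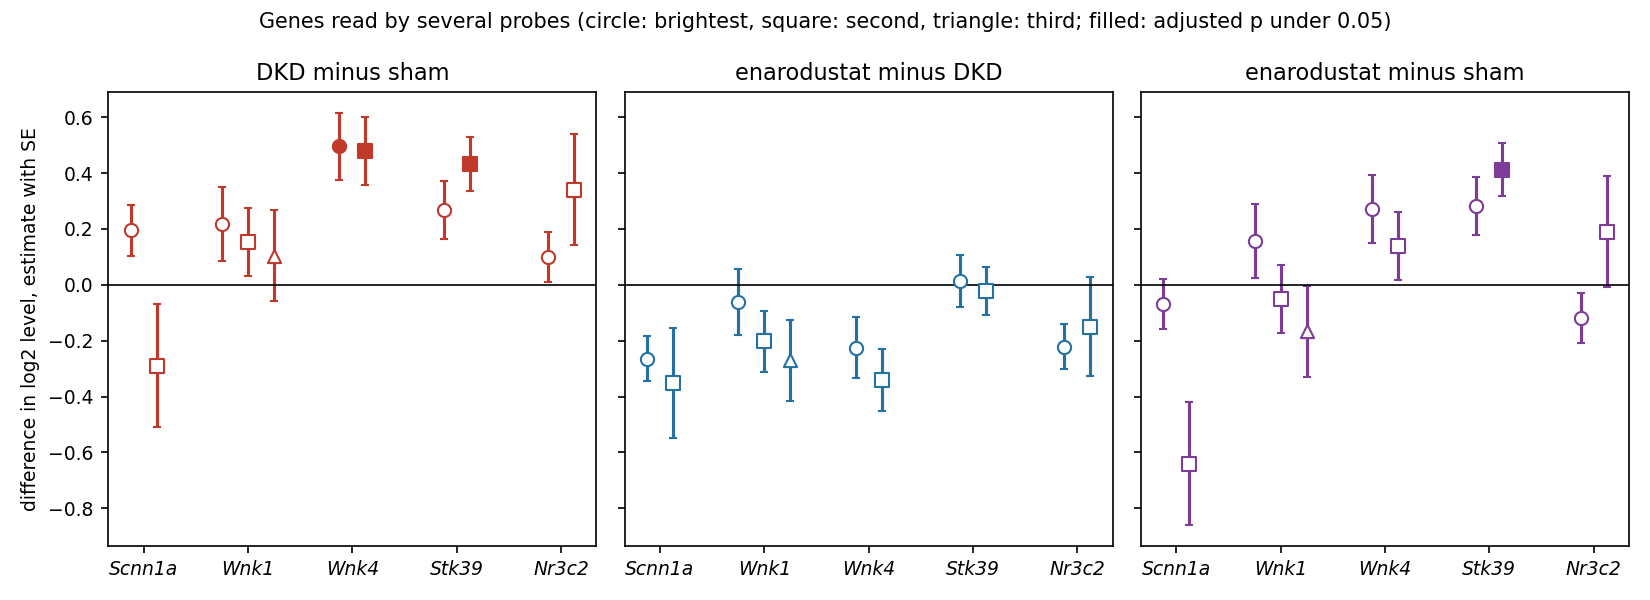
Difference in log2 level ± SE for every probe of the 5 genes with more than 1 probe, by comparison; filled symbols passed at an adjusted p under 0.05. The dimmer Scnn1a probe lies at −0.29 in DKD over sham where the brighter lies at 0.19, and the 2 Wnk4 probes lie at 0.50 and 0.48.

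Further genes of the pathway were described from 3 lists with 58 genes outside the 10, of which 55 were tested. In DKD over sham 3 rose, 2 fell and 50 did not pass, a median of −0.004. In enarodustat over DKD none of the 55 passed, and in enarodustat over sham 1 rose, 9 fell and 45 did not pass, a median of −0.10. Over all genes 5.47% rose and 11.6% passed in DKD over sham, so 3 rises and 5 calls among 55 lay at or below the background. In enarodustat over sham 8.74% of all genes rose and 6.75% fell. There the 9 falls among 55 lay above the background and the 1 rise below it. Slide row and group cannot be told apart in that comparison except through the DKD arrays. With the row as a term only 1 of the 55 was called there, and 889 of all genes where 2748 were called without it. The same limit holds for the differences of enarodustat over sham kidneys named below.

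Of the 11 tested regulators of the WNK and SPAK kinases, 1 fell and 10 did not pass in DKD. Klhl2, an adaptor of the cullin-3 ubiquitin ligase that removes WNK kinases, fell by 0.50 ± 0.08 in DKD (adjusted p = 0.000432) and by 0.38 ± 0.08 in enarodustat kidneys over sham (adjusted p = 0.00341). Its partner Cul3 stood at 0.02 in DKD (adjusted p = 0.927). Oxsr1, the kinase closest to SPAK, stood at 0.13 (adjusted p = 0.277), and Wnk2 at 0.37 (adjusted p = 0.0618). Wnk3 was not well above background on enough arrays to be tested.

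Of the 23 tested genes of mineralocorticoid signalling and ENaC control, 1 rose and 1 fell in DKD, and 1 rose and 4 fell in enarodustat kidneys over sham. Fxyd4, the corticosteroid-induced regulator of the sodium pump called CHIF, rose by 0.45 ± 0.11 in DKD (adjusted p = 0.01) and by 0.42 ± 0.11 with the drug over sham (adjusted p = 0.0147). Mllt3, a chromatin protein (Af9) that represses Scnn1a with Dot1l, fell by 0.48 ± 0.11 in DKD (adjusted p = 0.00564) and by 0.35 ± 0.11 over sham with the drug (adjusted p = 0.0312). Of other genes known to be induced by steroid receptors, Tsc22d3, or Gilz, stood at −0.004 in DKD (adjusted p = 0.994), Per1 at −0.02 (adjusted p = 0.979) and Fkbp5 at −0.52 (adjusted p = 0.0735). With the drug, Fkbp5 was lower than in sham kidneys by −0.71 ± 0.19 (adjusted p = 0.0117). The deubiquitinase Usp2 fell by 0.58 ± 0.17 over sham (adjusted p = 0.0228) and Prss8, the ENaC-cleaving protease prostasin, fell by 0.42 ± 0.09 (adjusted p = 0.00316). Hsd11b2, which keeps glucocorticoid off the mineralocorticoid receptor, and Nedd4l, the ligase that Sgk1 acts on, stood at 0.07 and 0.05 in DKD (adjusted p = 0.804 and 0.746).

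Of the 21 channels, pumps and cotransporters of these segments, 2 rose in DKD. Kcnj1, the apical potassium channel ROMK that works with Slc12a1 and ENaC, rose by 0.29 ± 0.06 (adjusted p = 0.00226), and was lower with the drug than without it by −0.22 ± 0.05, which did not pass (adjusted p = 0.064). Slc4a8, a sodium-driven chloride and bicarbonate exchanger, rose by 0.38 ± 0.10 (adjusted p = 0.0125). Over sham, 4 genes fell in enarodustat kidneys, among them Slc26a4 (pendrin) at −0.66 ± 0.12 (adjusted p = 0.000731), Kcnj15 at −0.50 ± 0.14 (adjusted p = 0.0193) and the scaffold Slc9a3r1 at −0.35 ± 0.12 (adjusted p = 0.0459). Atp1b1, the beta subunit of the sodium pump, stood at 0.19 in DKD (adjusted p = 0.186).

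Markers of the cell types that carry these transporters were read as well, and their lists differed. Of 10 principal cell markers, all well above background on 24 arrays, 7 rose in DKD, among them the water channels Aqp2 (0.91 ± 0.14, adjusted p = 0.000165), Aqp3 (0.40 ± 0.09, adjusted p = 0.00348) and Aqp4 (1.19 ± 0.35, adjusted p = 0.0301). The transcription factor Elf5 rose by 0.85 ± 0.17 (adjusted p = 0.00204), the vasopressin receptor Avpr2 by 0.57 ± 0.15 (adjusted p = 0.0149) and Gata3 by 0.32 ± 0.10 (adjusted p = 0.0335). The log2 of their summed level ran from 5.38 to 5.69 in sham, from 5.87 to 6.17 in DKD and from 5.57 to 6.11 in enarodustat kidneys. In enarodustat kidneys over sham 6 of the 10 rose, and none passed against DKD. Of all genes, 5.47% rose in DKD over sham and 8.74% in enarodustat over sham. The part of the principal cell markers in the rises of Scnn1g and Sgk1 was not tested.

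The thick limb markers, where Slc12a1 is made, went both ways. In DKD the prostaglandin receptor Ptger3 rose by 0.66 ± 0.11 (adjusted p = 0.000378), Umod (uromodulin) fell by 0.49 ± 0.11 (adjusted p = 0.00342), Cldn10 fell by 0.65 ± 0.14 (adjusted p = 0.00441) and 6 of 9 did not pass. The log2 of their summed level, to which the bright Umod contributes most, ran from 8.19 to 8.42 in sham and from 7.75 to 8.16 in DKD kidneys. The mean difference of the 9 markers from the sham mean, which weights them equally, overlapped, at −0.13 to 0.087 in sham and −0.20 to 0.19 in DKD kidneys. With the drug, Casr, the calcium-sensing receptor of this segment, fell by 0.46 ± 0.08 against DKD (adjusted p = 0.00493). Of 8 tested distal convoluted tubule markers only Calb1, a calcium-binding protein of that tubule and its connecting segment, passed, at 0.77 ± 0.13 in DKD (adjusted p = 0.000345) and 0.76 ± 0.13 with the drug over sham (adjusted p = 0.000286). The part of these markers in the differences of Slc12a1, Slc12a3 and Wnk4 was not tested.

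**Figure D4:**
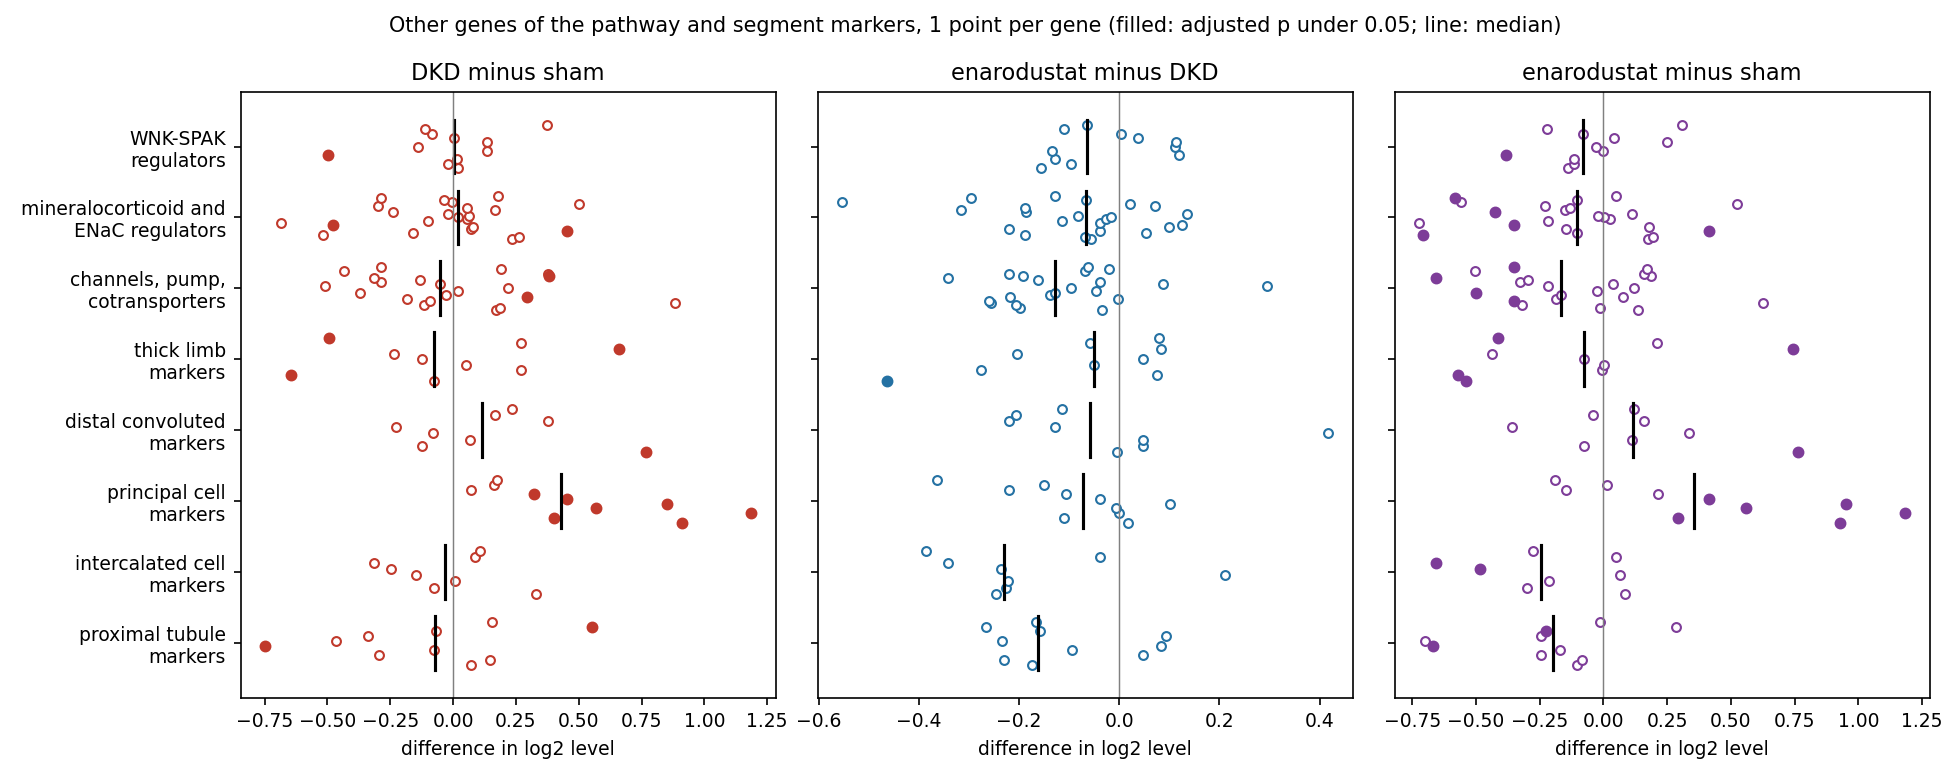
Difference in log2 level of further pathway genes and of segment markers, 1 point per gene, in the 3 comparisons (each with its own horizontal scale); filled points passed at an adjusted p under 0.05 and a line marks the median of the list. Principal cell markers lie above 0 in DKD over sham, with 7 of 10 filled, while the 3 pathway lists straddle 0.

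How the 10 genes vary from mouse to mouse was described after subtracting each group's mean, over 24 arrays and 45 pairs, with 100000 permutations per pair and p adjusted over the pairs. Pearson's r passed in 11 pairs, 10 of them positive, and Spearman's rho in 13. The share of passing pairs among all genes was not computed, so these counts have no background beside them. Values were permuted within groups but not within slides, so a difference between slides can enter the p-values. Both values of a pair come from 1 array, so variation that runs across an array enters both. Scnn1g and Sgk1 were among the closest pairs, with r = 0.69 (permutation p = 0.00026, adjusted p = 0.00945) and rho = 0.73 (permutation p = 0.00014, adjusted p = 0.00382). Their r was 0.69 without enarodustat 9 and enarodustat 4, the arrays farthest from the median, 0.68 with slide means removed too, and 0.83, 0.69 and 0.69 within sham, DKD and enarodustat arrays. Scnn1g also varied with Scnn1a, at r = 0.69 (permutation p = 0.00046, adjusted p = 0.00945) and rho = 0.69 (permutation p = 0.00047, adjusted p = 0.00705), with 0.65 left without DKD 5 and DKD 2 and 0.77 within slides. The gene pair Stk39 and Sgk1 had r = 0.63 (permutation p = 0.00098, adjusted p = 0.00945) and rho = 0.58 (permutation p = 0.00483, adjusted p = 0.031), with 0.68 without enarodustat 6 and DKD 2 and 0.64 within slides.

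Several further passing pairs held a WNK kinase, with a cotransporter, the other WNK kinase or the ENaC subunit Scnn1b. Slc12a1 and Wnk1 had r = 0.61 (adjusted permutation p = 0.0383), and Wnk1 and Wnk4 had r = 0.65 (adjusted permutation p = 0.0187). For Slc12a1 and Wnk1 r was 0.46 without DKD 5 and enarodustat 9, and 0.77 within slides. It was 0.08, 0.74 and 0.51 within sham, DKD and enarodustat arrays. For Wnk1 and Wnk4 r was 0.73 without DKD 7 and DKD 5, and 0.59 within slides. All Wnk1 pairs used its brightest probe, by which alone DKD 7 was low, and pairs with the dimmer probes were not tested. Outside this set, Scnn1g and Nr3c2 had r = 0.66 (adjusted permutation p = 0.00945). Scnn1a passed with Stk39, at r = 0.63 (adjusted permutation p = 0.0147), and with Sgk1, at r = 0.55 (adjusted permutation p = 0.0442). Slc12a3 and Wnk4, both of the distal convoluted tubule, had r = 0.66 (permutation p = 0.00102, adjusted p = 0.00945) and rho = 0.59 (permutation p = 0.00353, adjusted p = 0.031), with 0.51 without DKD 5 and sham 5 and 0.63 within slides. Slc12a1 and Wnk4 had r = 0.63 (permutation p = 0.00633, adjusted p = 0.0316) and rho = 0.54 (permutation p = 0.00989, adjusted p = 0.0405), but r was 0.38 without DKD 5 and enarodustat 9, so much of it rested on those arrays; within slides it was 0.66. Scnn1b and Wnk1 ran against each other, with r = −0.62 (permutation p = 0.00126, adjusted p = 0.00945) and rho = −0.55 (permutation p = 0.00882, adjusted p = 0.0397), −0.55 without enarodustat 9 and DKD 9, and −0.60 within slides.

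**Figure D5:**
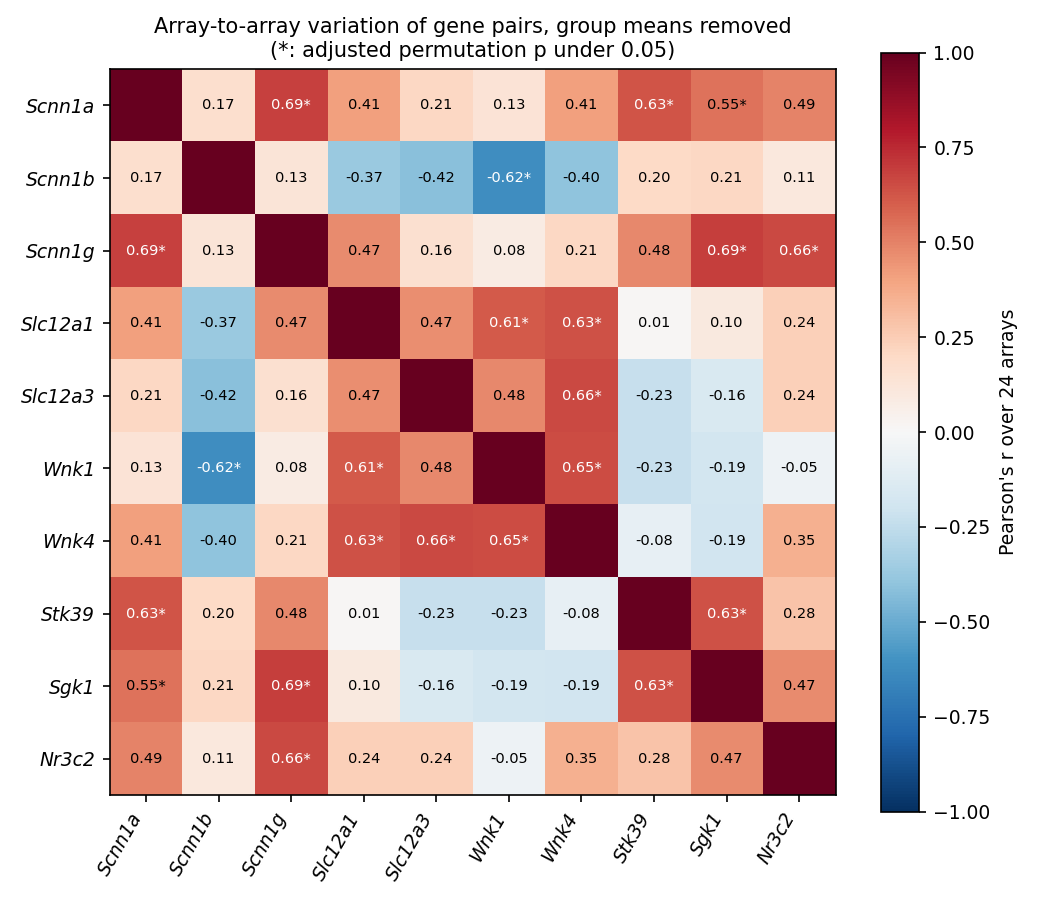
Pearson's r between the 10 genes over 24 arrays after subtracting group means; an asterisk marks an adjusted permutation p under 0.05. Scnn1g has r of 0.69 with both Scnn1a and Sgk1, Wnk4 has 0.66 with Slc12a3 and 0.63 with Slc12a1, and Scnn1b has −0.62 with Wnk1.

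Over all tested genes, those whose level varied most like 4 of the members, by Pearson's r of the same group-centred values over 24 arrays, were as follows. For Slc12a1 they were Map1b (r = 0.84), the adenylyl cyclase Adcy6 (0.83) and Dennd4c (0.82), each well above background on all 24 arrays. For Slc12a3 they were Smad9 (0.80), Atp8b1 (0.79) and Zeb1 (0.79), of which Smad9 was well above background on 13 arrays and Atp8b1 on 19. For Sgk1 they were Tnfrsf22 (0.79, well above background on 19 arrays), Gxylt2 (0.79) and Ccn2 (0.76), the matrix protein also called connective tissue growth factor. For Scnn1b they were Cst13 (0.92), Tbata (0.91) and Ldb3 (0.90), and with slide means removed as well these were 0.74, 0.84 and 0.74, while r for the genes of the other 3 members then lay between 0.76 and 0.86. The probes of Cst13, Tbata and Ldb3 lay at medians of 1.49, 3.27 and 3.14 log2 units above the lowest called signal; the Scnn1b probe lay at 2.28.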

How the data were processed

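The scanner files hold 1 array each, and their deposited spot signals are intensity values, from which Agilent Feature Extraction 12.1.1.1 had subtracted background and a spatial trend, per the file headers; version 11.5.1.1 and limma stand in the submitters' processing notes without a role. The authors' deposited values cover 31409 probes and are on a log2 scale with medians of 7.543 to 7.559; their direction and centring follow the scanner values, since 97.7% of gene-centred differences lay within 0.05 of normexp-corrected and quantile-normalized signals. They served as an alternative.

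Control spots and spots with an outlier flag were left out, and spots of a probe were averaged. Probes were named by accession through a RefSeq table of GRCm38.p6 (32994 of 56605 probes). The main value is the log2 intensity minus log2 of the array's 75th percentile. A gene was tested if the scanner called its brightest probe well above background on 6 or more of 24 arrays. All arrays entered 1 limma fit on group alone (R 4.3.3, limma 3.58.1; files read with data.table, version 1.17.8). P-values are two-sided, adjusted by the Benjamini-Hochberg method, with a threshold of 0.05; the step was tested on simulated data. The series text counts mice per group, so arrays were taken as separate mice; replicate numbers only name them.

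The members and the gene lists were chosen with earlier results of these data known. Named were all 10 members with every probe, and the passing genes of the lists, up to 6 per list with the largest change, and for 4 members the 3 genes most like them; other list genes were named after their values were seen, and some list genes are not reported here. Promoter windows come from RefSeq, where 9 of 10 members had an entry (14 windows). Alternatives covered scaling, background, filter, probe choice, slide, slide row, replicate block and leaving out each array. The planned normexp correction on mean spot signals used the median spot signals, which was chosen after seeing the data. The level of each gene was not recomputed on other scales, whose levels cannot be set beside these, so only differences were.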

Additional observations from a re-analysis of the deposited data

Results flagged for a closer look

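In 2 of the 30 combinations of gene and group the highest array stood far from the others by Dixon's test at the 95% level, and chance flags about 1 in 20. Both were DKD 5. Its Slc12a1 level was 4.36, with the next DKD array at 4.01, a gap of 0.496 of the group's range, just past the critical value. Its Wnk4 level was 2.79, with the next at 2.29, a gap of 0.495 of the range. Without DKD 5 the rise of Slc12a1 over sham was 0.35 (adjusted p = 0.00637) and that of Wnk4 was 0.43 (adjusted p = 0.0096), so both still passed in limma.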

How the results depend on the processing

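The 4 rises of DKD over sham kept their call in every alternative except slides taken alone, and leaving out any 1 array left 4 of 10 genes called in DKD over sham, 0 in enarodustat over DKD and 2 to 4 in enarodustat over sham. Of 396 recomputed differences per comparison, direction and side of the threshold held for 375, 371 and 344; the cause of the others was not tested, except that a slide alone holds fewer arrays. On slides 1, 2 and 3 alone, 0, 0 and 0 members passed in DKD over sham and in enarodustat over sham, and all genes called numbered 15, 0 and 9 in DKD over sham, 4, 3 and 0 in enarodustat over DKD, and 36, 30 and 7 in enarodustat over sham. With the slide row as a term, 0 members and 889 genes passed in enarodustat over sham and 20 genes in enarodustat over DKD. In enarodustat over DKD 83 genes passed without the filter, 47 with only these groups and 71 to 128 on leaving out 1 array. Replicate numbers did not pair arrays (10 of 21 same-numbered pairs correlated over 0.1, from −0.36 to 0.28, and 3 of 24 arrays lay closest to their own number); the replicate block left 4, 0 and 2 members called, 66 genes in enarodustat over DKD, Scnn1g over sham with the drug at 0.38 (adjusted p = 0.094) and Scnn1b there at −0.11. Of the further pathway genes, 5 were called in DKD over sham as reported and 8 in the authors' values, 10 in enarodustat over sham and 1 with the slide row, and none in enarodustat over DKD but 1 by normexp, 1 with slide as a random block and 2 in the authors' values; slides alone gave 0. The share of higher calls in enarodustat over DKD was 85% as reported, 74.8% by quantile normalization and 69.5% in the authors' values.

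Signs turned mainly where an estimate lay near 0. In DKD over sham, Scnn1a stood at −0.048 by the mean of probes and −0.29 by probe 2, Scnn1b at −0.011 in the authors' values and Slc12a3 at −0.16 on slide 1. In enarodustat over DKD, Slc12a1 stood at −0.025 by quantile normalization, −0.047 on slide 3 and −0.021 to 0.067 on leaving out 1 array; Wnk1 at 0.0093 with the slide row and 0.24 on slide 3; Sgk1 at 0.14 on slide 2 and −0.21 to 0.014 on leaving out 1 array. Stk39 there stood at −0.0045 in the authors' values, −0.0035 by the mean of probes, −0.021 by probe 2, −0.020 with the slide row, −0.062 and −0.033 on slides 1 and 3, and −0.019 to 0.056 on leaving out 1 array. In enarodustat over sham, the slide row put Scnn1a at 0.0089, Slc12a3 at 0.034 and Scnn1b at −0.29. Scnn1b stood at −0.044 by normexp, −0.10 by quantile normalization, −0.053 in the authors' values, −0.13 and −0.071 on slides 2 and 3, and −0.058 to 0.16 on leaving out 1 array. Slc12a3 stood at 0.034 on slide 3, Wnk1 at −0.020 by the mean of probes, −0.050 by probe 2 and −0.17 by probe 3, and Nr3c2 at 0.035 by the mean of probes and 0.19 by probe 2. Signal over background limits Scnn1b and the second Nr3c2 probe.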

Other observations

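Markers of other kidney cells were counted in the same fit. Of all genes, 5.47% rose and 6.13% fell in DKD over sham. In enarodustat over DKD 0.609% rose and 0.107% fell, and in enarodustat over sham 8.74% rose and 6.75% fell. Of 8 intercalated cell markers none passed in DKD over sham or in enarodustat over DKD, and 2 fell in enarodustat kidneys over sham: the anion exchanger Slc26a4 by 0.66 ± 0.12 (adjusted p = 0.000731) and Foxi1, the transcription factor that specifies these cells, by 0.48 ± 0.12 (adjusted p = 0.00621). Of 10 proximal tubule markers 1 rose and 1 fell in DKD, the lactate carrier Slc5a12 at 0.55 ± 0.13 (adjusted p = 0.00643) and the organic anion transporter Slc22a6 at −0.75 ± 0.12 (adjusted p = 0.000305). In enarodustat kidneys over sham 2 of the 10 fell, Slc22a6 by 0.67 ± 0.12 (adjusted p = 0.000704) and the phosphate transporter Slc34a1 by 0.23 ± 0.07 (adjusted p = 0.0422). Of 6 tested thin limb markers 1 rose in DKD and 2 rose in enarodustat kidneys over sham, and of 6 podocyte markers none passed in any comparison.

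Of 7 endothelial markers 5 rose in enarodustat over DKD and 5 over sham, beside 0.609% and 8.74% of all genes. None of the 7 passed in DKD over sham. Of 8 macrophage markers 1 fell in DKD, and 1 rose and 1 fell in enarodustat kidneys over sham. Of 9 lymphocyte markers 1 fell in DKD and 2 fell in enarodustat kidneys over sham. Of 5 tested erythroid genes 3 fell in DKD and 1 rose in enarodustat over DKD. Of 4 tested adrenal cortex genes none passed in DKD, and Star, which carries cholesterol into mitochondria for steroid synthesis, rose in enarodustat kidneys over sham by 0.75 ± 0.24 (adjusted p = 0.0356). The rest of this list went both ways there and did not pass, with Cyp17a1 at −0.61, Cyp21a1 at −0.20 and Mc2r at 0.20. Cyp11b1 and Cyp11b2, well above background on 2 and 0 arrays, were not tested.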
